A study of Mus musculus with 36 samples.

Results

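Histones package DNA into nucleosomes, and the genes for them were followed here in the liver and quadriceps of mice after removal of most of the liver. The members are the rows of the deposited gene table whose symbol begins with Hist1h to Hist4h, H2af or H3f3. They number 59 of 14702 rows: 51 genes of the replication-dependent clusters (5 for the linker histone H1, 11 for H2A, 13 for H2B, 10 for H3 and 12 for H4) and 8 variant genes (H3f3a, H3f3b, H2afx, H2afz, H2afv, H2afj, H2afy and H2afy2). The mice were male C57BL6/J mice of 12 to 14 weeks with no transgene or deletion named in the labels. In each tissue, 5 libraries came from mice 1 day, 5 from mice 3 days and 5 from mice 7 days after 70% partial hepatectomy (PHx), and 3 came from mice with a sham laparotomy in which no liver was removed, so that there were 36 libraries in all. The day on which sham tissue was taken is not given, so a single sham group served every day, and the labels do not say whether liver and quadriceps libraries with the same number came from one animal. The series title places the work in a study of hepatic Yap1, systemic catabolism and muscle loss during liver repair, and the comparisons ask what happened in the remaining liver and in a distant muscle.

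Replication-dependent histone genes are transcribed in S phase, when newly copied DNA needs new nucleosomes. Their mRNAs carry no poly(A) tail and end a few bases after a short stem-loop, which the stem-loop binding protein Slbp recognises. Total RNA libraries, as used here, hold such mRNAs, whereas libraries primed or selected on poly(A) largely lose them. Variant histones are made outside S phase as well, from polyadenylated mRNAs: H3f3a and H3f3b encode the same replacement histone H3.3, H2afz and H2afv encode forms of H2A.Z, H2afx encodes the H2A.X that is phosphorylated at DNA breaks, and H2afy and H2afy2 encode macroH2A. After partial hepatectomy in rodents, remaining hepatocytes re-enter the cell cycle, and DNA synthesis is a standard readout of regeneration.

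The stem-loop is the sequence that sets the cluster genes apart, and it is shown for 6 cluster genes described below and for the variant that also carries it. The 16 bases of the stem and loop are in capitals, with 5 bases of flank on each side, from the GENCODE M21 transcripts of mm10.
Hist1h1c: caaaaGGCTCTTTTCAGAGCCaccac
Hist1h2ag: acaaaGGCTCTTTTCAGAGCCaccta
Hist1h2bf: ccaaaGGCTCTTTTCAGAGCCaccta
Hist1h3c: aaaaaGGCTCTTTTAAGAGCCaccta
Hist1h4f: tcaaaGGCCCTTTTCAGGGCCaccca
Hist1h4d: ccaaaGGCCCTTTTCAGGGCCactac
H2afx: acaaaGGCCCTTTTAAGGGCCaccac
These capitals lie at chr13:23739512-23739527 (plus strand), chr13:22042483-22042498 (minus), chr13:23573765-23573780 (minus), chr13:23745047-23745062 (minus), chr13:23551291-23551306 (minus), chr13:23581950-23581965 (plus) and chr9:44335240-44335255 (plus), in the order of the genes shown, each in the 3′ UTR of its gene. A stem-loop of this pattern was found in 35 of the 51 cluster genes and in 1 of the 8 variants, H2afx, against 68 of 21877 protein-coding gene names in the annotation (0.311%). Of the 16 cluster genes without one, 11 have an annotated model with no 3′ UTR at all, so a match could not be made there. The loop began 21 to 54 bases after the stop codon in the cluster genes. One form, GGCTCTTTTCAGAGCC, was shared by 3 H1, 5 H2A, 6 H2B and 3 H3 genes, whereas 6 H4 genes shared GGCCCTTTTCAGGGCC.

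By position, 43 members belong to the Hist1 cluster at chr13:21715713-23764412, 6 to Hist2 at chr3:96219916-96270192, and 1 each to Hist3 (Hist3h2a, chr11:58954685-58955192) and Hist4 (Hist4h4, chr6:136803993-136804431). In 6 places an H2A and an H2B gene start close to each other on opposite strands. Hist1h2bl and Hist1h2ai are 269 bases apart, and Hist1h2ag and Hist1h2bj 281. Promoter sequence from RefSeq (GRCm38.p6), from 250 bases before to 50 after the start, was matched for 53 members, 46 of them in the clusters. The promoters of 2 strongly called cluster genes and of H3f3b are shown, each on its gene's strand, with matches to the searched motifs on either strand in capitals: the TATA box TATAAA, the CCAAT box, the octamer ATTTGCAT and the H1 box AAACACA.
Hist1h1b: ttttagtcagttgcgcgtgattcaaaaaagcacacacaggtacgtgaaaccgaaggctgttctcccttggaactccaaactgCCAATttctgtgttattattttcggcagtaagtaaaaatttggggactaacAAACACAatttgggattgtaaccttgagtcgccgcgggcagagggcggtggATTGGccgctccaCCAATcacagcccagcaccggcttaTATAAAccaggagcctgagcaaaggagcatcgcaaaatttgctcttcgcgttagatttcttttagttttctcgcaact
Hist1h2bl: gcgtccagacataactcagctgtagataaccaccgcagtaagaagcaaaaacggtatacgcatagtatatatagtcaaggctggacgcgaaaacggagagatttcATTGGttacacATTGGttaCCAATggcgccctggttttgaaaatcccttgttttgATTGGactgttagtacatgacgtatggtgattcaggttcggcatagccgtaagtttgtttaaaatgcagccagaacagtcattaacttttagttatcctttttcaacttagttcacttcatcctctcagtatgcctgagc
H3f3b: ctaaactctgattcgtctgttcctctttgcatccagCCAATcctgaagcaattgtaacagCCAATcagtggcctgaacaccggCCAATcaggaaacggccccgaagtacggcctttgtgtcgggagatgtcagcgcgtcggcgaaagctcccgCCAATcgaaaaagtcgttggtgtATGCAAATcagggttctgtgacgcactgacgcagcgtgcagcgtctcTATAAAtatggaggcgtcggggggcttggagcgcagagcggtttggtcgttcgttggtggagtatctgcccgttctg
They span chr13:21780576-21780875, chr13:21716134-21716433 and chr11:116024455-116024754, all on the minus strand. CCAAT was present in 82.6% of the 46 cluster promoters and 41.1% of 27025 promoters of all genes; it was in every matched H1, H2A, H2B and H3 promoter and in 27.3% of the H4 promoters. TATAAA was in 58.7% of cluster promoters, against 15.7% of all. The octamer ATTTGCAT was in 45.5% of H2A and 54.5% of H2B promoters and in none of the H1, H3 or H4 promoters, against 1.97% of all. AAACACA, known from H1 promoters, was in 80% of the 5 H1 promoters and 8.22% of all. The 2 forms of an E2F site that were also searched were rare: TTTCGCGC was in 13% of cluster promoters and 0.374% of all, and TTTGGCGC was in 0% of cluster promoters and 0.58% of all. These matches describe letters in a window and say nothing of binding.

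Gene counts summed to between 12464547 and 28862458 reads per liver library and 15506197 and 29623890 per quadriceps library. Levels are given in CPM, a gene's reads scaled to a common library total, and differences as log2 fold changes, with SE, from edgeR's quasi-likelihood test with Benjamini-Hochberg adjustment over all genes tested. The fold changes are scaled by TMM, and scaling by total reads instead would shift every log2 change by -0.11, 0.13 and 0.21 at days 1, 3 and 7 in liver and by -0.20, -0.06 and 0.07 in quadriceps. A gene is said to rise or fall only at an adjusted p under 0.05. Albumin averaged 60023 CPM in day 1 livers and 67821 CPM in sham livers and Acta1, the muscle actin, 14558 CPM in sham quadriceps, and the reverse pairs were low, so each library matched its labelled tissue. Several libraries stood apart in what follows. Liver day 7 replicate 3 had histone levels near those of sham livers, and its level of Mki67, a marker of cycling cells, was 1.68 CPM against 76.02 to 232 CPM in the other day 7 livers. Liver day 1 replicates 4 and 5, and to a lesser degree replicate 2, had H3f3b levels far above the rest. In quadriceps, day 3 replicate 5 and day 7 replicate 3 differed from their groups in single genes. Some results that rest on these libraries are given with and without them. Single-gene values at liver day 7 are given only with replicate 3 included.

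Single-gene values carry a limit that comes with this family. When the full M21 transcripts of mm10 were cut into 50-base windows, 44 of the 51 cluster genes shared over 10% of them with another gene. At least 50% were shared by 21, with 93.9% for Hist1h3h and 82.8% for Hist1h2bl. Only Hist1h1a, Hist1h1b and Hist2h2be shared none. These transcripts can be far longer than the model on which reads were counted, as for Hist1h1d, with 7376 windows against 776 counted bases. The exons on which 21 members were counted also overlap an exon of another gene in GENCODE M21, 19 of them on the opposite strand and 4 on the same strand. The pairs on the same strand include Hist3h2a with Trim17 and Hist1h2be with the longer M21 model of Hist1h1e. How shared reads and strand were counted is not given in the sources used here, so which copy a read came from is uncertain for most cluster genes. Sharing also crosses classes in the M21 models, as between Hist1h1e and Hist1h2be, although the counted exons of that pair do not overlap. Sums by class may therefore not be free of it.

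In the sham liver, the cluster genes together took 282, 315 and 301 CPM. Per kilobase of gene length, the highest mean levels there were those of Hist1h2bc, at 114 CPM per kb, Hist1h4d at 111 and H3f3b at 78.6. In sham quadriceps, where the clusters summed to 297, 259 and 264 CPM, the linker histone gene Hist1h1c led with 115 CPM per kb, followed by Hist1h4d with 65.7. Over time after PHx, the liver sum averaged 299.1 ± 16.7 CPM in sham (SD, n = 3), 401 ± 114 at day 1, 536 ± 160 at day 3 and 589 ± 248 at day 7 (n = 5 each). Every day 3 liver lay above every sham liver, at 496, 342, 569, 779.9 and 490.2 CPM, whereas day 1 livers (354, 388, 246, 546 and 469 CPM) and day 7 livers (701, 554, 268, 487 and 934 CPM) overlapped the sham range. By class, the ratio of day 3 to sham mean was 3.86 for H3, 3.56 for H2A, 2.25 for H1, 1.80 for H4 and 0.975 for H2B. Hist1h2bc, the H2B gene with the highest level, was lower, as described below. Hist1h1c and Hist1h2bc together made up 38.0% of cluster reads in sham livers, 53.2% at day 1, 22.6% at day 3 and 26.1% at day 7. Without them the sum at day 1 was 0.973 times that of sham (1.34 times with them), and 2.28 times at day 3 and 2.45 times at day 7.

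**Figure D1:**
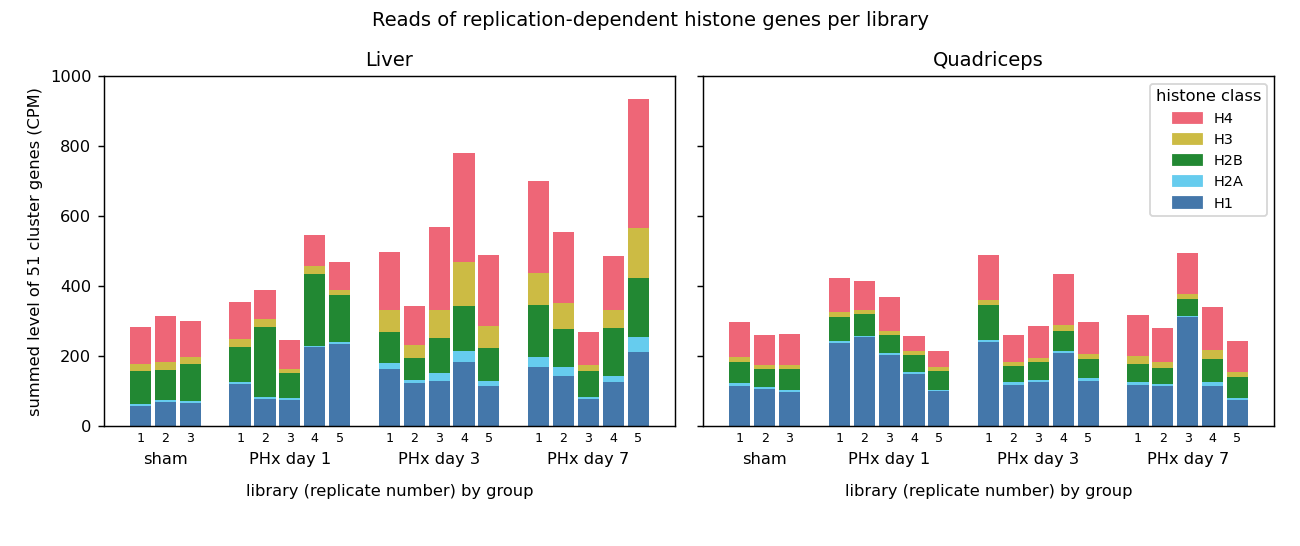
Summed level of the 51 cluster histone genes in each library, in CPM, stacked by class (H1, H2A, H2B, H3, H4), for liver and quadriceps; each bar is 1 library. All 5 liver day 3 bars stand above the 3 sham bars, and liver day 7 replicate 3, at 268 CPM, is the lowest of the day 7 bars.

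At day 3 after PHx, genes of each of the 5 classes were among those that rose in liver. Of the 51 cluster genes, 26 rose and 1 fell against sham, with a median log2 change of 2.12, beside 0.04 over all 13879 genes tested in liver, of which 28.6% were called (15.8% higher and 12.8% lower). Every day 3 library lay above every sham library for 37 cluster genes, and below for 2; the 28.6% called over all genes is a share of a different kind, and the share of all genes without overlap was not computed. By class, 3 of 5 H1, 4 of 11 H2A, 9 of 13 H2B, 5 of 10 H3 and 5 of 12 H4 genes rose. In bulk tissue a gene's rise cannot be told apart from a larger share of cells that express it. The count depends on the 3 sham livers: of the 59 members, 30 were called with all of them, but 12, 14 and 10 without sham replicate 1, 2 and 3, while leaving out 1 day 3 library gave 21 to 32. The 28.6% of all genes belongs to the fit with every library, and the shares of all genes called in these refits are not given here. Of the 22 named cluster genes called at day 3, 9 kept the call whichever of the 8 libraries was left out, namely Hist1h1b, Hist1h2bf, Hist1h2bl, Hist1h3c, Hist1h3f, Hist1h3h, Hist1h4a, Hist1h4f and Hist1h4k.

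Among the linker histones, Hist1h1b (H1.5; chr13:21779832-21780625, minus strand), which shares no window with another gene, showed the clearest change. It had 5.53, 2.15, 6.98, 10.3 and 4.19 CPM in day 3 livers, against 0.280, 0.349 and 0.407 CPM in sham livers. The groups did not overlap, and the log2 change was 3.92 ± 0.90 (adjusted p = 0.0045). Hist1h1a (H1.1) rose by 2.62 ± 0.89 (adjusted p = 0.037), a call lost without any 1 of the 3 sham livers or without day 3 replicate 3 or 4, at 2.22 to 2.78 and adjusted p up to 0.12. Hist1h1c (H1.2, chr13:23738807-23739531, plus strand) had the highest mean level per length of the H1 genes over all liver libraries. In sham livers alone, Hist1h1e had more reads (2182 against 1982). Hist1h1c had 84.5, 74.2, 50, 65.9 and 49.7 CPM in day 3 livers, against 22.2, 26.3 and 27.5 CPM in sham livers. Again no library overlapped, with a log2 change of 1.21 ± 0.41 (adjusted p = 0.033) that kept its call in 2 of 8 fits with 1 library left out (1.10 to 1.29, adjusted p up to 0.12). Hist1h1d, at 1.45 ± 0.70, and Hist1h1e, at 0.28 ± 0.44, did not pass; with only the day 3 and sham libraries fitted, Hist1h1d did (1.44, adjusted p = 0.013).

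Several H2A and H2B genes had very low sham levels and large fold changes. Hist1h2bl (chr13:21715713-21716143, minus strand) had 1.21, 1.10, 2.02, 4.15 and 2.10 CPM in day 3 livers, against 0.105, 0.0436 and 0.0370 CPM in sham livers, a log2 change of 4.82 ± 1.06 (adjusted p = 0.0035). Its divergent neighbour Hist1h2ai gathered 84 reads over the 5 day 3 livers and 2 over the 3 sham livers, a depth-scaled ratio of 30.2 (exact 95% interval 8.11 to 254, counting error only). Hist1h2bf had 2.69, 1.52, 3.77, 6.64 and 2.35 CPM in day 3 livers, against 0.175, 0.349 and 0.148 CPM in sham livers, and rose by 3.77 ± 0.90 (adjusted p = 0.0056). For these genes the lowest day 3 library was well above the highest sham library. Hist1h2ag rose by 3.77 ± 1.10 (adjusted p = 0.017; 0.076 and 0.073 without sham replicate 1 and 3). Of the cluster genes, 15 were under 0.5 CPM in every sham liver, and 11 of those rose, against 15 of the other 36. A gene that low in sham can be abundant enough to be tested largely through PHx libraries where it is high. Setting these shares side by side is therefore no result about genes with low levels.

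Hist1h2bc (chr13:23684199-23692480, plus strand) was the single cluster gene that fell. Its counted model has 3 exon blocks, and no stem-loop was found in its M21 transcripts. This H2B gene had 50.4, 42.3, 45.8, 41.1 and 54.8 CPM in day 3 livers, against 88.5, 77.4 and 98.3 CPM in sham livers. The groups were apart, with a log2 change of -1.04 ± 0.29 (adjusted p = 0.014; -0.95 and 0.063 without sham replicate 3). Its divergent partner Hist1h2ac starts 240 bases away. Hist2h2be, another H2B gene, had a change of 0.05 ± 0.38 that did not pass.

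Of the H3 and H4 genes, 5 of 10 and 5 of 12 rose, and the most abundant H4 genes did not pass. Hist1h3h had 1.95, 2.05, 3.85, 6.49 and 3.12 CPM in day 3 livers, against 0.140, 0.175 and 0.296 CPM in sham livers (log2 change 3.93 ± 0.87, adjusted p = 0.0036). Hist1h3c (chr13:23745042-23745521, minus strand) had 7.62, 2.36, 8.21, 14.4 and 8.60 CPM in day 3 livers, against 0.594, 0.305 and 0.739 CPM in sham livers (3.75 ± 0.94, adjusted p = 0.0073). Neither gene's groups overlapped, and day 3 replicate 4 was the highest library for both. Hist1h3f rose by 2.01 ± 0.43 (adjusted p = 0.0028), with 8.93 to 26.4 CPM in day 3 livers and 3.03 to 4.01 CPM in sham livers. Hist1h4a (chr13:23760795-23761249, minus strand) had 12.6, 7.72, 40.8, 43.0 and 35.5 CPM in day 3 livers, against 2.31, 3.18 and 2.37 CPM in sham livers (3.29 ± 0.81, adjusted p = 0.0069). Hist1h4f rose by 2.37 ± 0.58 (adjusted p = 0.0062) and Hist1h4k by 2.59 ± 0.68 (adjusted p = 0.0094). The 3 H4 genes with the highest sham level per length overlapped between groups instead: Hist1h4d had 44.0, 33.1, 57.3, 71.5 and 46.0 CPM in day 3 livers, against 37.1, 44.7 and 40.4 CPM in sham livers (0.17 ± 0.27), and the changes of Hist1h4c and Hist1h4h were 0.13 ± 0.23 and -0.09 ± 0.29. Hist1h4i, chosen after its values were seen, lay below every sham liver in all 5 day 3 livers, with a change of -0.66 ± 0.39 that did not pass (adjusted p = 0.23). The stem-loops of Hist1h4f and Hist1h4d shown above have the same 16 bases.

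**Figure D2:**
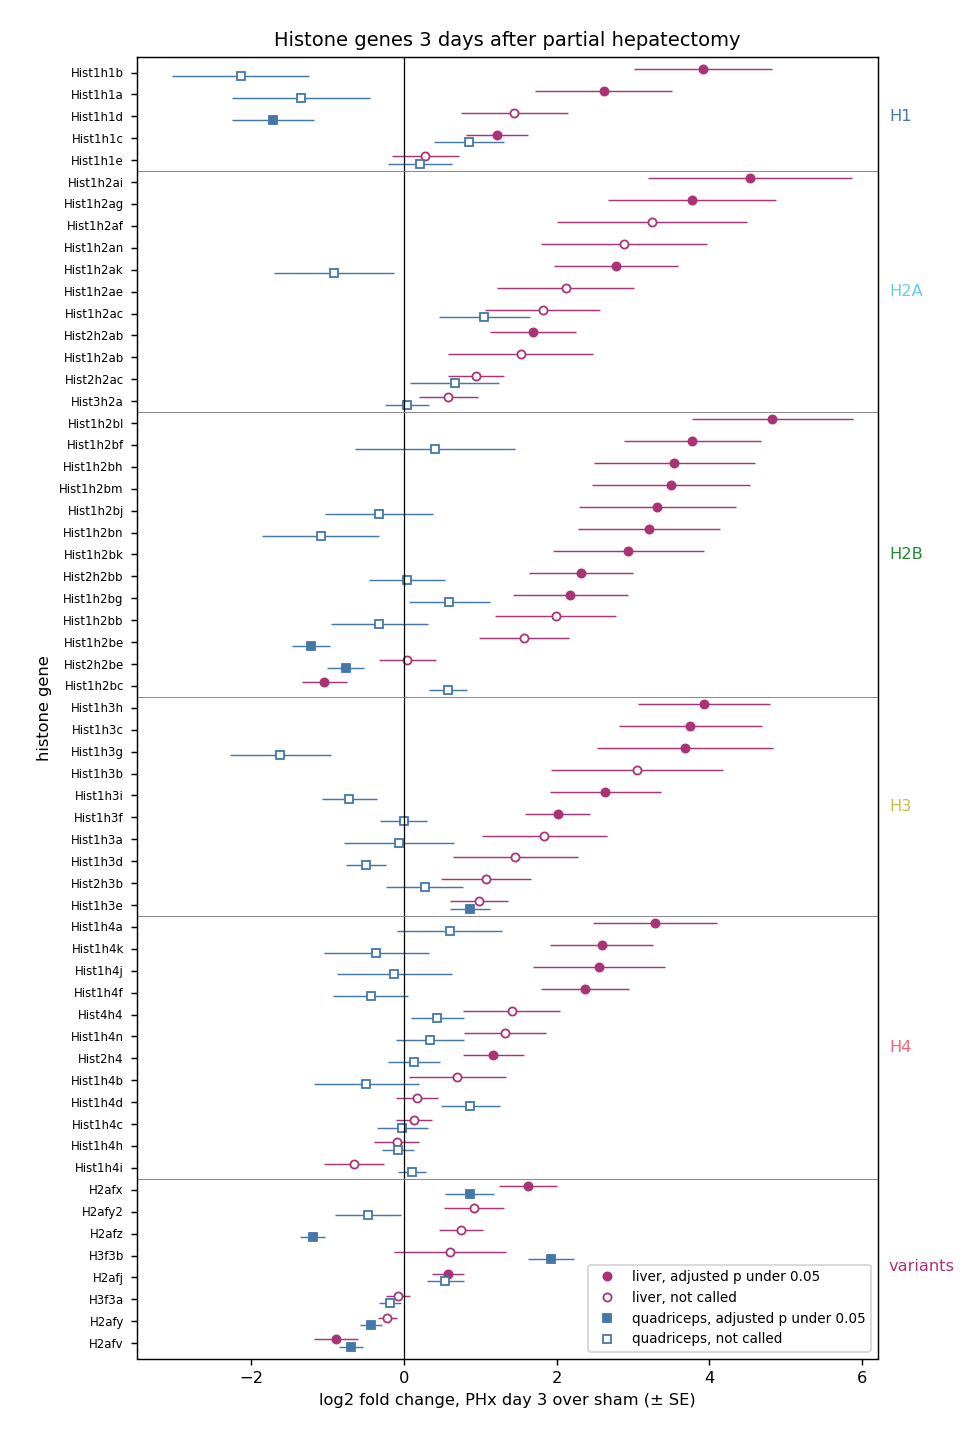
log2 fold change of each histone gene at day 3 over sham, with SE, in liver (circles) and quadriceps (squares), by class; filled symbols passed an adjusted p of 0.05 and genes not tested in quadriceps have no square. Liver circles lie to the right of 0 for most cluster genes, up to 4.82 for Hist1h2bl, while quadriceps squares scatter around 0.

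At day 7 cluster genes were again higher in liver, in 4 of the 5 libraries. Against sham, 25 cluster genes rose and 0 fell (median 2.20, beside 0.05 over all genes, of which 19.2% were called, 12.4% higher and 6.74% lower), and 22 of them had also risen at day 3. Between day 7 and day 3, 0 of the 59 members were called by edgeR, 1 of the 51 cluster genes had an unadjusted p under 0.05, and the median cluster change was 0.14; over all genes 1.26% were called (0.612% higher and 0.648% lower). Hist1h1b had 9.43, 8.70, 0.473, 5.52 and 13.9 CPM in day 7 livers, against 0.280 to 0.407 CPM in sham livers (4.25 ± 0.91, adjusted p = 0.006). Hist1h2bl had 2.69, 2.02, 0.158, 2.25 and 5.86 CPM in day 7 livers, against 0.0370 to 0.105 CPM in sham livers (5.08 ± 1.06, adjusted p = 0.0054). In both genes replicate 3 lay near sham and the other 4 far above. All 5 day 7 libraries lay above all sham libraries for 7 cluster genes, and the 19.2% called over all genes is again not a share without overlap. Without replicate 3, 42 of the 59 members were called at day 7 and not 26, 40 of them cluster genes that rose. Without sham replicate 1, 2 or 3 the counts were 5, 9 and 4. The 19.2% of all genes belongs to the fit with every library, and the shares of all genes called in these refits are not given here.

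On day 1 few cluster genes were called. Against sham, 2 cluster genes rose and 2 fell (median -0.01, beside 0.06 over all genes, of which 27.7% were called, 16.7% higher and 11% lower). Hist1h1c was the 1 cluster gene whose call every fit with 1 library left out kept. It had 62.7, 54.9, 42.5, 135 and 152 CPM in day 1 livers, against 22.2, 26.3 and 27.5 CPM in sham livers, a log2 change of 1.995 ± 0.42 (adjusted p = 0.004). It was 1.02 (adjusted p = 0.007) without replicates 4 and 5, the highest, and 1.98 (adjusted p = 0.051) with only the day 1 and sham libraries fitted, a fit in which 1 of the 59 members was called. Hist1h2bg rose by 2.12 ± 0.76 (adjusted p = 0.045), with 2.05, 11.2, 1.20, 10.2 and 5.70 CPM in day 1 livers, against 1.43, 1.48 and 1.63 CPM in sham livers; its groups overlapped, and without replicates 4 and 5 it was 1.57 (adjusted p = 0.18). Hist1h4h fell by 0.92 ± 0.29 (adjusted p = 0.027) and Hist2h2be by 1.04 ± 0.38 (adjusted p = 0.05), and each kept its call in 2 of 8 fits with 1 library left out. Of the 59 members 6 were called on day 1, and 3 without any 1 sham liver, without replicate 4, without replicate 5 or without both.

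The comparison of day 3 with day 1 has 5 libraries on each side and gave the most calls. At day 3 against day 1, 37 of the 51 cluster genes rose and 1 fell, with a median of 2.33 beside -0.03 over all genes, of which 25.2% were called (11.6% higher and 13.6% lower). Of those 37, 14 were not called against sham at day 3. Hist1h3c, at 2.36 to 14.4 CPM in day 3 livers and 0.0899 to 0.896 CPM in day 1 livers, rose by 4.24 ± 0.80 (adjusted p = 0.0027). Hist1h2bc fell by 1.73 ± 0.27 (adjusted p = 0.00091). Hist2h2ac and Hist3h2a, H2A genes outside the Hist1 cluster, kept their calls in 10 of 10 fits with 1 library left out. Without day 3 replicate 4 the members called numbered 26 and not 42.

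**Figure D3:**
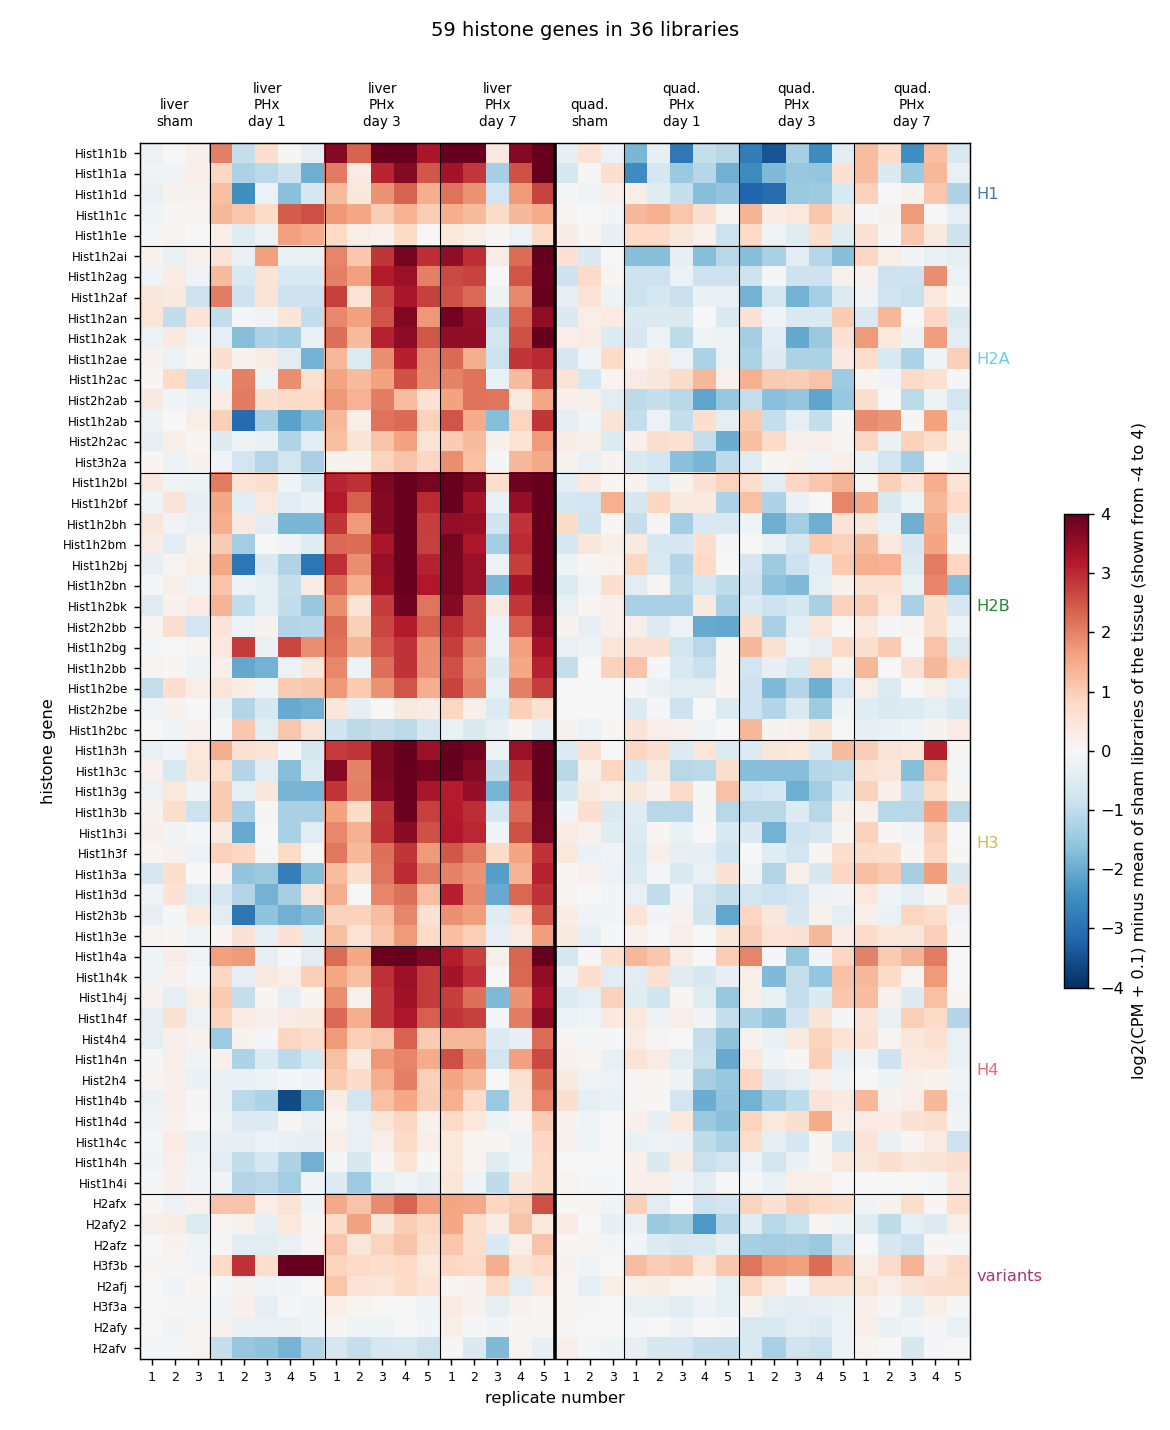
Level of the 59 histone genes in each of the 36 libraries, as log2(CPM + 0.1) minus the mean of the sham libraries of the same tissue, from blue (lower) to red (higher). Most cluster genes are red in liver day 3 and in liver day 7 except replicate 3, Hist1h2bc is blue in all 5 liver day 3 libraries, and H3f3b is darkest in liver day 1 replicates 4 and 5.

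Markers of several other cell types moved in the same livers. The summed level of 13 macrophage and monocyte markers, of which 6 rose at day 3, was 381 to 686 CPM in day 3 livers, against 178 to 255 CPM in sham livers. For 9 stellate and fibroblast markers, 6 of which rose, it was 502 to 842 CPM in day 3 livers, against 310.3 to 447 CPM in sham livers, and for 6 cholangiocyte markers, 5 of which rose, 199.8 to 473 against 21.8 to 26.6 CPM. Muscle fibre markers, 12 of 14 of which fell, summed to 14.2 to 167 CPM in day 3 livers, against 567.7 to 1064 CPM in sham livers, and 8 adipocyte markers, 2 of 5 tested falling, to 81.8 to 711 against 3651 to 4799.8 CPM. Neutrophil markers, 6 of 7 of which rose, summed to 14.1 to 57.2 CPM in day 3 livers, against 2.66 to 3.50 CPM in sham livers. Only 3 of 10 listed B and T cell markers had counts; all 3 fell, summing to 0.263 to 1.67 against 3.80 to 5.17 CPM. The 6 pancreatic islet markers, all of which rose, summed to 6.83 to 189.7 CPM in day 3 livers, with 0 reads for all 6 in sham livers. In day 1 livers the cholangiocyte sum was 46.6, 62.2, 38.9, 406 and 703 CPM, high in replicates 4 and 5, and the muscle fibre sum was 1059, 1767, 47.4, 25.5 and 21.4 CPM. Other lists did not move 1 way at day 3: of 10 hepatocyte markers 4 rose and 3 fell, and of 6 endothelial markers 1 rose and 2 fell. Of 3 erythroid markers tested, 0 rose and 1 fell. The part of these shifts in the histone results was not tested.

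The variant histone genes were called singly. Against sham, 1 of 8 rose and 1 fell in liver at day 1, 2 rose and 1 fell at day 3, and 1 rose and 0 fell at day 7. Over all genes 27.7%, 28.6% and 19.2% were called on those days, so the counts of variants are no result about them as a group. H3f3b (chr11:116021961-116024504, minus strand) was the variant that rose at day 1. It had 271, 1167, 255, 4027 and 4889.8 CPM in day 1 livers, against 161, 165 and 144 CPM in sham livers. All day 1 livers were above all sham livers, 3 of them by far, and the log2 change was 4.0 ± 0.87 (adjusted p = 0.0047). It was 1.77 (adjusted p = 0.012) without replicates 4 and 5, and 3.98 (adjusted p = 0.063) with only the day 1 and sham libraries fitted. Day 3 livers had 291, 274, 256, 272 and 211 CPM, again all above sham, with a change of 0.60 ± 0.73 that did not pass but did with only the day 3 and sham libraries fitted (0.58, adjusted p = 0.00058). At day 3 against day 1 H3f3b fell by 3.397 ± 0.68 (adjusted p = 0.0034). That fall rests on day 1 replicates 2, 4 and 5, as replicates 1 and 3 (271 and 255 CPM) lay within the day 3 range. A fit without replicates 4 and 5 together was not run for this comparison. H3f3a, whose mRNA encodes the same protein from chr1:180802568-180813603 (minus strand), stood between 42.5 and 63.9 CPM in day 1 livers, against 52.6 to 57.0 CPM in sham livers (0.01 ± 0.16), and was called in none of the comparisons. H1fx, a linker histone gene outside the 59, had 0.187, 5.85, 0.12, 6.65 and 6.26 CPM in day 1 livers, against 0.131 to 0.210 CPM in sham livers, high in the same 3 replicates as H3f3b.

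H2afx (chr9:44334715-44336073, plus strand), the variant with a stem-loop, rose at days 3 and 7. It had 16.9, 13.1, 22.2, 29.8 and 18.4 CPM in day 3 livers, against 6.01, 5.02 and 6.69 CPM in sham livers, without overlap, and rose by 1.63 ± 0.38 (adjusted p = 0.0049). In day 7 livers it had 17.8, 16.9, 10.4, 11.6 and 35.5 CPM (1.44 ± 0.38, adjusted p = 0.016), a call lost without any 1 sham liver (1.32 to 1.55, adjusted p 0.054 to 0.068). H2afz (chr3:137864487-137866922, plus strand) had 65.7, 42.7, 56.1, 67.6 and 49.7 CPM in day 3 livers, against 30.1, 33.6 and 27.9 CPM in sham livers; the groups did not overlap, but the change of 0.75 ± 0.29 did not pass (adjusted p = 0.065). It passed with only the day 3 and sham libraries fitted (0.73, adjusted p = 0.0013). The other H2A.Z gene, H2afv (chr11:6427226-6444443, minus strand), went down early: it had 12.2, 8.15, 7.64, 6.38 and 10.3 CPM in day 1 livers, against 22.8, 22.5 and 25.2 CPM in sham livers (-1.30 ± 0.29, adjusted p = 0.0058). At day 3 it was still lower, by 0.89 ± 0.29 on the log2 scale (adjusted p = 0.031; 0.053 to 0.095 without any 1 sham liver or day 3 replicate 2 or 5). H2afj rose by 0.58 ± 0.21 at day 3 (adjusted p = 0.049), a call that no fit with 1 library left out kept (0.46 to 0.62, adjusted p up to 0.17). H2afy, at -0.22 ± 0.12 on day 3, and H2afy2 did not pass in liver.

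**Figure D4:**
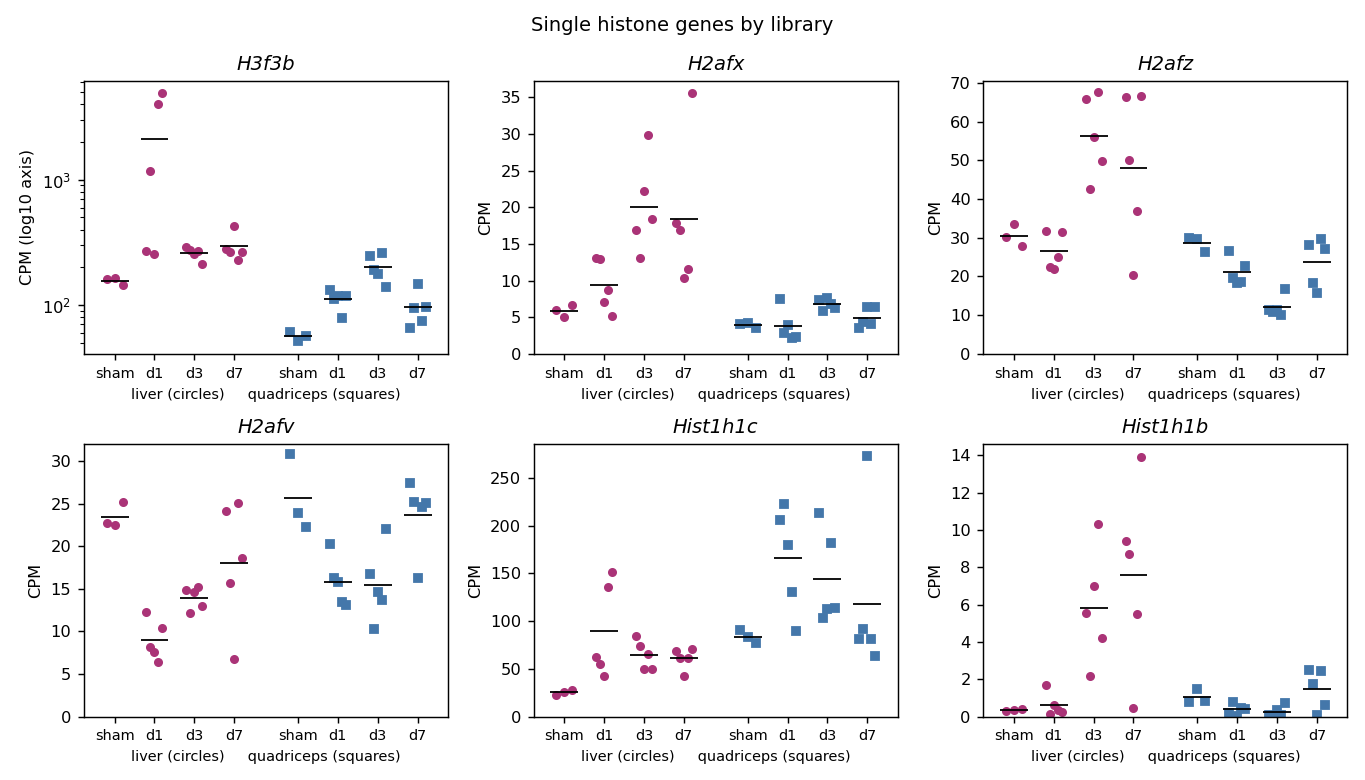
Level of 6 histone genes in each library, in CPM (log10 axis for H3f3b), by group in liver (circles) and quadriceps (squares); horizontal lines are group means. H3f3b peaks in liver at day 1, H2afx and Hist1h1b are high in liver at days 3 and 7, and H2afz at day 3 is above its sham range in liver and below it in quadriceps.

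In quadriceps, 37 of the 51 cluster genes and all 8 variants were abundant enough to be tested, and the other 14 cluster genes were not. The clusters were called rarely. At day 1, 0 of 37 rose or fell (2 at an unadjusted p under 0.05, and 3 members, variants included, called by DESeq2, where edgeR called 1), beside 5.29% of all 13601 genes tested (3.04% higher and 2.26% lower). Day 3 was the stage of large change in this muscle, with 47.5% of genes called (24.8% higher and 22.6% lower). Of the cluster genes 1 rose and 3 fell, and the median of -0.02 equalled that of all genes. Some tested cluster genes had few reads over the 5 day 3 muscles, such as Hist1h2ak with 18 and Hist1h1b with 24, while Hist1h1c had 14874. Few calls among genes with so few reads need not mean that they did not change. At day 7, 0 cluster genes were called (2 at an unadjusted p under 0.05), beside 0.0588% of all genes (0.0441% higher and 0.0147% lower). The summed cluster level was 489, 261, 286, 435 and 298 CPM in day 3 quadriceps, against 297, 259 and 264 CPM in sham quadriceps, with overlapping groups. Of the 59 members, 45 of which were tested, 9 were called at day 3, 5 without sham replicate 2 and 15 without day 3 replicate 5.

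The 3 cluster genes that fell in day 3 muscle were Hist1h2be, Hist1h1d and Hist2h2be, and the 1 that rose was Hist1h3e; 17 of the 37 tested changes were positive and 20 negative. Hist1h2be had 5.64, 2.87, 4.35, 2.49 and 5.86 CPM in day 3 quadriceps, against 9.96, 10 and 10.1 CPM in sham quadriceps (-1.22 ± 0.24, adjusted p = 0.0011), with the groups well apart. Hist1h1d fell by 1.71 ± 0.54 (adjusted p = 0.015; 0.055 without sham replicate 3) and Hist2h2be by 0.76 ± 0.24 (adjusted p = 0.015; 0.054 without sham replicate 2). Hist1h3e rose by 0.86 ± 0.26 (adjusted p = 0.013; 0.066 without sham replicate 2). Hist1h1b had 0.0613, 0, 0.342, 0.0941 and 0.719 CPM in day 3 quadriceps, against 0.785, 1.49 and 0.844 CPM in sham quadriceps; all 5 lay below sham, and the change of -2.14 ± 0.89 did not pass (adjusted p = 0.058), but did without replicate 5, the highest (-2.98, adjusted p = 0.018). Hist1h1c had 213, 102.8, 112, 182 and 113 CPM in day 3 quadriceps, against 90.8, 83.1 and 77.2 CPM in sham quadriceps, above sham in every library, with a change of 0.85 ± 0.45 that did not pass. Hist1h4d had 44.78, 32.1, 37.73, 66.89 and 28.0 CPM in day 3 quadriceps, against 26.8, 21.41 and 24.27 CPM in sham quadriceps, also above sham in every library, with a change of 0.87 ± 0.38 (adjusted p = 0.068). With only the day 3 and sham libraries fitted, Hist1h1b (-2.16, adjusted p = 0.046), Hist1h1c (0.84, 0.027) and Hist1h4d (0.86, 0.035) passed, and Hist1h1b (0.040) and Hist1h4d (0.043) also passed with DESeq2.

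Of the variants, 1 rose at day 1 in quadriceps, and 2 rose and 3 fell at day 3, beside 5.29% and 47.5% of all genes called on those days. H3f3b had 247, 189, 176, 262 and 138 CPM in day 3 quadriceps, against 61.4, 51.1 and 56.4 CPM in sham quadriceps (1.92 ± 0.30, adjusted p = 0.00036). At day 1 it had 133, 111, 119, 78.7 and 119 CPM, all above sham (1.19 ± 0.29, adjusted p = 0.037), a call kept in 2 of 8 fits with 1 library left out (1.14 to 1.26, adjusted p up to 0.18). H2afz fell, with 11.4, 10.9, 11.4, 10.1 and 16.8 CPM in day 3 quadriceps, against 29.9, 29.6 and 26.4 CPM in sham quadriceps (-1.19 ± 0.17, adjusted p = 0.00024). H2afv fell by 0.69 ± 0.15 (adjusted p = 0.0021) and H2afy by 0.43 ± 0.14 (adjusted p = 0.02; 0.068 and 0.062 without sham replicate 2 and 3). H2afx rose by 0.86 ± 0.32 (adjusted p = 0.033), which 2 of 8 fits with 1 library left out kept. In the same muscles 6 of 14 muscle fibre, 7 of 8 adipocyte, 4 of 4 tested pancreatic islet (median -7.15) and 3 of 9 stellate and fibroblast markers fell, and 8 of 10 hepatocyte, 4 of 6 neutrophil and 3 of 11 macrophage markers rose, and 1 of 8 adipocyte markers did too. Their part in these values was not tested.

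Whether the liver responded differently from the muscle was tested as the difference of the 2 responses over all 36 libraries, taken as unpaired. At day 3, the liver response was higher for 14 of 37 cluster genes and lower for 1, with a median difference of 1.90 beside 0.03 over 12780 genes, of which 41.5% were called (19.9% higher and 21.6% lower). Of those 14, 12 had also risen in liver. The difference was 6.04 ± 1.28 for Hist1h1b (adjusted p = 0.00049), 5.29 ± 1.39 for Hist1h3g, 2.78 ± 0.62 for Hist1h2be (adjusted p = 0.00084) and -1.63 ± 0.40 for Hist1h2bc (adjusted p = 0.0018), each kept with any 1 library left out. Hist1h3g had few muscle reads, 21 over the 3 sham and 10 over the 5 day 3 quadriceps, and shares 54.1% of its windows with another gene. For H2afz it was 1.93 ± 0.34 (adjusted p = 9.5e-05), with day 3 libraries above sham in liver and below sham in quadriceps. At day 1, 0 cluster genes were called (2 at an unadjusted p under 0.05) and 1 variant was, H3f3b, at 2.82 ± 0.82 (adjusted p = 0.024), a call lost without any 1 sham liver or without liver day 1 replicate 4 or 5 (2.20 to 2.86, adjusted p up to 0.065); over all genes 11.2% were called (6.56% higher and 4.62% lower). At day 7, 4 cluster genes were called, all higher in liver, beside 7.08% of all genes (4.44% higher and 2.64% lower). Of the 59 members, 45 of which were tested with all libraries, 13 were called without liver day 7 replicate 3. None was called without liver sham replicate 1 or 3, quadriceps sham replicate 1 or 3, or liver day 7 replicate 1.

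Genes that act on histones and on DNA replication were read from lists chosen for their roles. Of 47 genes of S phase, 36 rose and 1 fell in day 3 livers (median 2.40), where 28.6% of all genes were called (15.8% higher and 12.8% lower). Among 19 chaperone and acetylation genes, 8 rose and 1 fell: Asf1b, which hands new H3 and H4 to the replication fork, had 4.79, 2.52, 10.04, 8.74 and 7.27 CPM in day 3 livers, against 0.210, 0.524 and 0.148 CPM in sham livers (4.39 ± 0.99, adjusted p = 0.0042), Chaf1b, a subunit of chromatin assembly factor 1, rose by 2.86 ± 0.62, and Rbbp4 fell by 0.88 ± 0.13. Histone mRNA transcription and 3′ end processing genes numbered 29, of which 2 rose and 1 fell. Slbp had 7.90, 7.83, 12.6, 12.9 and 10.7 CPM in day 3 livers, against 6.29, 6.24 and 7.36 CPM in sham livers, all above sham, with a change of 0.52 ± 0.30 that did not pass. Npat, the activator of histone transcription, did not pass at day 3 (0.55 ± 0.23) but rose at day 1 (0.88 ± 0.23), when 7 of the 29 rose and 1 fell, a share near the 27.7% of all genes called on that day. Of 21 variant deposition genes 4 rose and 1 fell at day 3, no larger a share than the 28.6% of all genes. Those that rose included the centromeric histone Cenpa (1.29 ± 0.37) and its loading factor Oip5 (4.11 ± 0.82). In day 3 quadriceps, 5 S phase genes rose and 10 fell of 45, below the 47.5% of all genes called there.

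Hist1h1b and Mki67 put the 5 day 3 livers in the same order. Mki67 had 121, 61.8, 143, 176 and 105 CPM in day 3 livers, against 7.52, 10.2 and 9.61 CPM in sham livers (3.60 ± 0.98, adjusted p = 0.012). The lowest day 3 liver, replicate 2, and the highest, replicate 4, were the same for both genes. In quadriceps Mki67 had 0.675, 0.371, 0.342, 0.753 and 6.42 CPM at day 3, against 2.45, 3.75 and 5.38 CPM in sham quadriceps, and replicate 5 was the highest of the day 3 muscles in both.

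**Figure D5:**
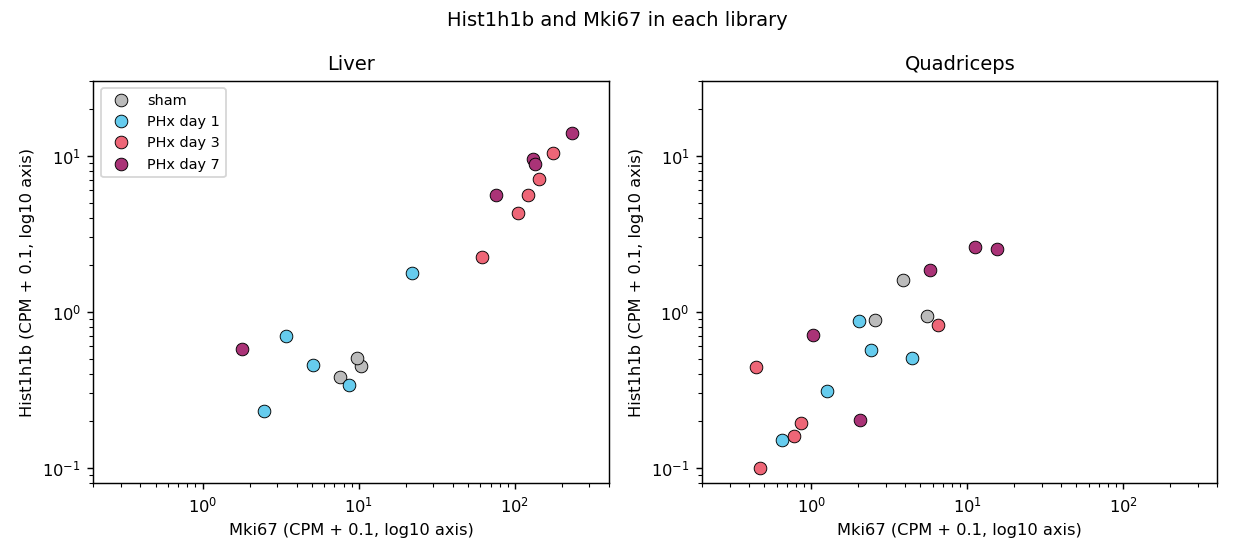
Level of Hist1h1b against that of Mki67 in each library (CPM + 0.1, both axes log10), in liver and quadriceps, coloured by group. Day 3 livers and 4 of 5 day 7 livers lie at the upper right, and liver day 7 replicate 3, at 1.68 CPM Mki67, lies at the lower left.

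Calls were found at every level of sequence sharing, with larger medians where more was shared. At day 3 in liver, 4 of the 7 cluster genes that share under 10% of their windows rose (median 1.41). So did 9 of 23 that share 10 to 50% (1.82) and 13 of 21 that share at least 50% (2.94). The shares are over full M21 transcripts. For genes with long ones, such as Hist1h1d, a low share need not hold over the counted bases. For 19 genes, even the M21 model that ends soonest after the stem-loop runs on at least 100 bases past it, and 7 of them rose (median 1.45). Of 16 with a model that ends before that, 8 rose (2.66), as did 11 of 16 with no stem-loop found (2.71). Over all genes tested in liver, 15.8% were called higher at day 3 and 12.8% lower. This is a split by M21 models, not by counted bases. In the models on which reads were counted, 28 of the cluster stem-loops lie 4 or 5 bases before the end, so the M21 bases further on gave no reads there. In the authors' deposited table, whose false discovery rates come from their own fit, 33 cluster genes were higher and 2 lower at day 3 in liver, and 2 higher and 6 lower at day 3 in quadriceps. The share of all genes called in the authors' fit was not computed, so these counts stand without a background.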

How the data were processed

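Total RNA (QIAzol extraction, RNeasy cleanup with DNase, KAPA libraries, per the labels' protocols) was sequenced from 18 livers and 18 quadriceps. Per the submitters' processing notes, FastQC 0.11.5, STAR 2.7.10a, featureCounts, Subread 2.0.3 and edgeR 3.40.2 were used with mm10; the annotation, the strand setting and the treatment of reads with several matches are not given in the sources used here. The deposited table holds raw counts per gene, which were used here, and the authors' own log2 fold changes and p-values, quoted only where named. It also holds 36 columns of log2 values per sample from the authors, which were not used. Groups came from sample titles; another label names day 3 for every sample, sham included.

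Counts were tested with edgeR 4.0.16 in R 4.3.3 (filterByExpr, TMM, quasi-likelihood F test with robust dispersion, Benjamini-Hochberg at 0.05), 18 libraries of a tissue in one fit, and the difference between tissues over 36 libraries. The scripts were tested on simulated data. No 2 replicates agreed within sampling noise. Labels do not say that replicates are separate animals, so p-values measure only the spread between these samples, which may be technical. Members and lists were chosen with earlier results of these data known. Named genes were, per class, up to 3 with the highest level per length in liver, up to 2 with the largest rise and fall per comparison among those called, every variant, and the 4 list genes with the smallest p, with Slbp, Npat, Cenpa, H1f0 and Mki67; H1fx came from the list of other histones. Alternatives were other scalings, no filter, DESeq2 1.42.0, only the compared groups, a replicate block, and each library left out.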

Additional observations from a re-analysis of the deposited data

Results flagged for a closer look

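Of 108 groups of 5 libraries examined, 9 held a library whose distance from its nearest neighbour exceeded 0.71 of the group's range; chance alone flags about 1 in 20 groups. In liver, H3f3b was 430.1 CPM in day 7 replicate 3 (next library 279.9), H2afy was 66.9 CPM in day 1 replicate 1 (53.8), and Hist1h2bl was 0.56 CPM in day 1 replicate 1 (0.16). In quadriceps at day 3, H3f3a was 67.1 CPM in replicate 1 (50.7), Hist1h2bc was 82.4 CPM in replicate 1 (47.1), and H2afz was 16.8 CPM in replicate 5 (11.4). In quadriceps at day 7, Hist1h1c was 273 CPM in replicate 3 (91.3), H2afv was 16.3 CPM in replicate 3 (24.6), and Hist1h3h was 1.16 CPM in replicate 4 (0.192).

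The liver and quadriceps responses differed, by the test of the difference itself, for 21 pairs of a named gene and a day. At day 1 the liver minus quadriceps difference in log2 change was 2.82 for H3f3b. At day 3 it was 6.04 for Hist1h1b, 3.94 for Hist1h1a and 3.14 for Hist1h1d among H1 genes, and 3.67 for Hist1h2ak. For H2B genes it was 4.29 for Hist1h2bn, 3.63 for Hist1h2bj, 2.78 for Hist1h2be and -1.63 for Hist1h2bc. For H3 genes it was 5.29 for Hist1h3g, 3.34 for Hist1h3i and 2.005 for Hist1h3f, and for H4 genes 2.94 for Hist1h4k, 2.80 for Hist1h4f and 2.705 for Hist1h4a. The variants H2afz and H2afy2 had 1.93 and 1.37. At day 7 the difference was 3.87 for Hist1h1b, 2.48 for Hist1h3i, 2.0 for Hist1h2be and 1.68 for Hist3h2a.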

How the results depend on the processing

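Counts of the 59 members called depended most on which libraries and groups were fitted. No result reversed under any alternative run, and the causes were not tested. In quadriceps and for the tissue difference, 45 of the 59 members were tested with all libraries. The shares of all genes called in the alternative fits are not given here, so their counts of members stand without a background. Leaving out 1 library gave 3 to 9 at liver day 1 (6 with all), 10 to 32 at day 3 (30), 4 to 42 at day 7 (26), 26 to 42 at day 3 against day 1 (42) and 0 to 1 at day 7 against day 3 (0). In quadriceps it gave 0 to 4 at day 1 (1), 5 to 15 at day 3 (9) and 0 at day 7 (0), and for liver minus quadriceps 0 to 2 at day 1 (1), 13 to 20 at day 3 (17) and 0 to 13 at day 7 (4). Of pairs with the same replicate number, 4 of 24 in liver, 2 of 24 in quadriceps and 9 of 18 across the tissues correlated above 0.1. Pairs with different numbers were not computed, so this cannot decide whether the numbers pair the samples. A fit with the number as a replicate block gave 3, 15 and 10 at liver days 1, 3 and 7 and 0 at quadriceps day 1. For the tissue difference it gave 0 and 0 at days 1 and 7. With only the compared groups, 1 was called at liver day 1, 49 at liver day 3 and 4 at quadriceps day 1. Without liver day 1 replicates 4 and 5, an alternative chosen after seeing the data, 3 were called. DESeq2 called 3 at quadriceps day 1 and 7 for the tissue difference at day 7; with no filter, 2 and 1 were called for the difference at days 1 and 7. Scaled by TMM, the variants summed to 356 CPM in sham livers (339 by total) and 234 in day 7 quadriceps (251). Per kb, class shares in liver were 19.4% at day 3 and 15.4% in sham for H1, 14.8% and 23.3% for H2B, 49.1% and 52.6% for H4, and 2.0% in sham for H2A. Depth limits genes with few reads, such as Hist1h2ai.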
